A study of Mus musculus with 21 samples.

Results

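The genes described here take up glucose, split it in glycolysis and burn its carbon in the tricarboxylic acid cycle. They are 37 of the 20960 genes in the count table and were chosen by name for these roles. Their measured values were not a criterion, though earlier results of these data were known. The glucose transporter genes are Slc2a1 and Slc2a4. The glycolytic genes are Hk1, Hk2, Gpi1, Pfkm, Aldoa, Tpi1, Gapdh, Pgk1, Pgam1, Pgam2, Eno1, Eno3 and Pkm, followed by the lactate dehydrogenase genes Ldha and Ldhb. Entry of pyruvate into mitochondria and its oxidation are represented by Mpc1, Mpc2, Pdha1, Pdhb, Dlat and Dld. The cycle itself is represented by Cs, Idh2, Idh3a, Idh3b, Idh3g, Ogdh, Dlst, Sucla2, Suclg1, Fh1 and Mdh2, and the malate-aspartate shuttle by Mdh1, Got1 and Got2.

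RNA came from hearts of adult male wild-type mice. A group of 4 mice received polystyrene nanoplastics, which are plastic particles of nanometre size, over 8 weeks, and 3 control mice received distilled water. No transgene or other agent is named for either group, and the sources used here do not give dose, particle size, route or age in weeks. Hearts were perfused with cold buffer and divided into 3 sections (atrial, right ventricle, left ventricle). Polyadenylated RNA of every section was made into a separate library, so the 7 mice yielded 21 libraries.

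Glycolysis runs in the cytosol and turns glucose into pyruvate, which is either reduced to lactate or imported into mitochondria. There the pyruvate dehydrogenase complex makes acetyl-CoA, and the tricarboxylic acid cycle oxidises it and hands its electrons to the respiratory chain. The adult heart draws most of its energy from fatty acids but can also burn glucose and lactate, and it relies on muscle forms of several glycolytic enzymes. The malate-aspartate shuttle carries the electrons of cytosolic NADH into the mitochondria.

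In 20 libraries the total was between 413436 and 2439314 counts. The right ventricular library of nanoplastics mouse 2 held 4662 counts, of which 122 fell on the 37 genes, so that 1 count there equals 214.5 CPM (counts scaled to a common library size) by the library total and 84.3 CPM after the scaling used for the levels below. Values without it are given beside several of the results that it moved. The label of the atrial section was poorly borne out by its markers: the summed level of 8 atrial muscle genes ran from 64.2 to 63947 CPM in the 7 libraries of that label, with Bmp10 at 0 in each, while the summed level of 4 ventricular muscle genes in them was 7860 to 12310 CPM. Whole-heart values are sums over the 3 sections of 1 mouse. The right ventricular section then contributed 39.1 ± 4.20% of the counts in controls and 14.3 ± 11.5% in nanoplastics mice, and the atrial section 27.2 ± 13.2% and 43.9 ± 17.6% (SD, n = 3 and 4 mice). Library sizes were scaled with edgeR's TMM method, a trimmed mean of log ratios between libraries. With that scaling the median difference of all 8485 genes tested in the whole heart was -0.03 on the log2 scale, and with library totals alone it was -0.27. All changes below are on the TMM scale unless another is named.

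The members covered a wide range of levels. Expressed per kilobase of the longest annotated transcript, whole-heart medians over the 7 mice were highest for Mpc1 (2579 CPM per kb), a subunit of the mitochondrial pyruvate carrier, Mdh1 (2206), the cytosolic malate dehydrogenase, and Ldhb (1840.3), the heart form of lactate dehydrogenase. Aldoa, the muscle aldolase, and Pgam2, the muscle phosphoglycerate mutase, followed at 737 and 722 CPM per kb. These ranks depend on the length used, and the counts do not tell which transcripts were present. Without division by length the median of Mpc2 (2154 CPM) was above those of Aldoa (1141 CPM) and Pgam2 (607 CPM). At the low end stood both hexokinase genes, with 5.07 CPM per kb for Hk2 and 1.88 for Hk1, the ubiquitous mutase gene Pgam1 with 3.90 and the glucose transporter genes Slc2a4 with 7.97 and Slc2a1 with 0.433. These 5 genes had the lowest levels per length of the 37. Of the remaining isoform pairs, Eno3 stood at 649 and Eno1 at 20.7 CPM per kb, and Ldha at 266. Mpc1 counts may include reads of the pseudogene Mpc1-ps, which had 6618 counts in the table against 58292 for Mpc1. The 37 genes together took 2.28 to 3.00% of all counts in control mice and 2.34 to 2.62% in nanoplastics mice, and the groups overlapped.

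**Figure D1:**
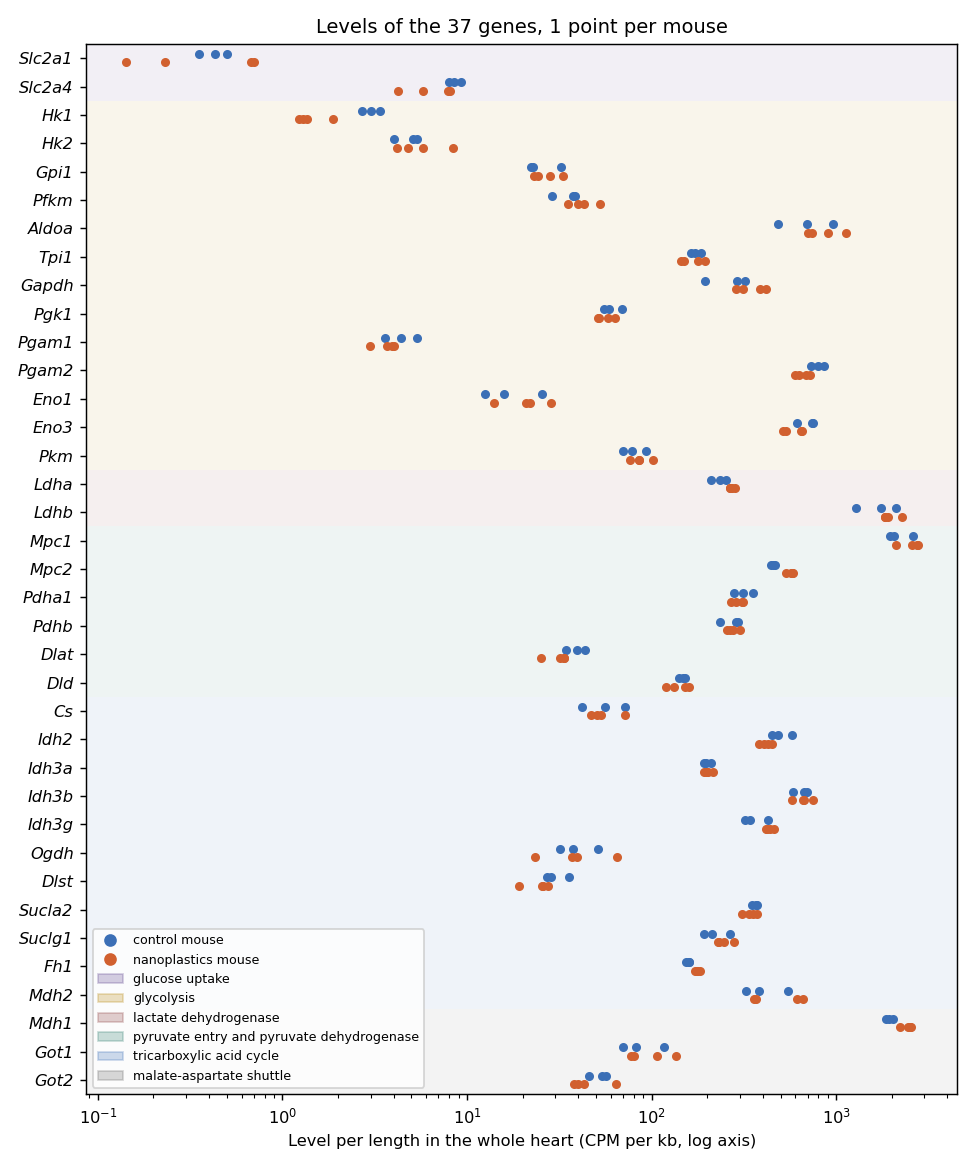
Level of each of the 37 genes in the whole heart of each mouse, in CPM per kb of the longest annotated transcript, on a log axis, with genes ordered and shaded by role. Blue points are the 3 control mice and orange points the 4 nanoplastics mice, so a reader sees the spread from Slc2a1 at 0.433 to Mpc1 at 2579 CPM per kb (medians) and the separate groups of Hk1.

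Several steps are encoded by a muscle form and a widely expressed form, and the muscle or heart form dominated. Per length, Pgam2 made up a median of 99.5% of the summed level of Pgam2 and Pgam1 in the whole heart (range 99.3 to 99.6% over 7 mice). Eno3, the muscle enolase, made up 96.9% of Eno3 and Eno1 (94.8 to 98.0%). Slc2a4, the insulin-responsive transporter GLUT4, made up 94.8% of Slc2a4 and Slc2a1 (91.8 to 97.6%). Ldhb made up 87.8% of Ldhb and Ldha (86.0 to 89.2%). Hk2, the insulin-regulated hexokinase, had the smallest lead, at 77.2% of Hk2 and Hk1 (59.9 to 81.7%). That median is the value of nanoplastics mouse 1. The share was 59.9, 62.7 and 61.3% in controls and 77.2, 78.7, 80.8 and 81.7% in nanoplastics hearts. Skeletal muscle also makes Pgam2 and Eno3. Of 10 skeletal muscle markers 7 were in the table, and they summed to 9.37 to 14.2 CPM in control hearts and 8.56 to 13.2 CPM in nanoplastics hearts, with Myh1 at 3 counts or fewer in each.

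The 250 bases before the annotated starts of the pairs with the largest and the smallest lead show how differently these genes begin. The sequences are from the RefSeq promoter table for GRCm38.p6, which holds starts of 35 of the 37 genes (51 starts), and are written 5′ to 3′ on the strand of the gene with each CG dinucleotide in capitals.
Pgam2 (chr11:5803797-5804046, minus strand): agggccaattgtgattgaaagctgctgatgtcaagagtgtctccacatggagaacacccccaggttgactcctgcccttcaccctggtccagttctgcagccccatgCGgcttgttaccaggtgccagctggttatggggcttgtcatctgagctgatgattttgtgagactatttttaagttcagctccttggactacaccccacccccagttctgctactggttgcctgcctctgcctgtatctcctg
Pgam1 (chr19:41911621-41911870, plus strand): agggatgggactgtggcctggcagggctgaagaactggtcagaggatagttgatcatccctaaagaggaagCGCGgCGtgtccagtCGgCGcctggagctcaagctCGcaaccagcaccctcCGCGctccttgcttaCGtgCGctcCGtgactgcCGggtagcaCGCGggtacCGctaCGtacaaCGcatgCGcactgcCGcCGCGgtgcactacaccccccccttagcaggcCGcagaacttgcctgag
Hk2 (chr6:82774455-82774704, minus strand): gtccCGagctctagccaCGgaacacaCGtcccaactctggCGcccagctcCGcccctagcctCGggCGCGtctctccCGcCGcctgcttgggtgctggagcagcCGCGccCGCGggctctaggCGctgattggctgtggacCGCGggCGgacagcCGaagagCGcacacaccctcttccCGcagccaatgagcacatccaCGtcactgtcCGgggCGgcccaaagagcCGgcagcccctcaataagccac
Hk1 (chr10:62340422-62340671, minus strand): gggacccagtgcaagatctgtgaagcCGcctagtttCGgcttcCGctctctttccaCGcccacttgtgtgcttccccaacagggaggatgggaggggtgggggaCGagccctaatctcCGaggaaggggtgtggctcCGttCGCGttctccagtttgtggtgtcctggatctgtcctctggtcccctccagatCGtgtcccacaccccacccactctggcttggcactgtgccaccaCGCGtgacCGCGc
Hk1 (chr10:62379909-62380158, minus strand): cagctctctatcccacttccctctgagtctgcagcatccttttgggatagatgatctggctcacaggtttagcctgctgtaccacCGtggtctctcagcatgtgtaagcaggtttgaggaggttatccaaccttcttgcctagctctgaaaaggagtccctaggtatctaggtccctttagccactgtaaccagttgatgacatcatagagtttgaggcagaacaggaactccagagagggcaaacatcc
Pgam2 has 1 CG in this window and Pgam1 has 22. Hk2 has 25, and the 2 starts of Hk1 have 14 and 1. Over all 32851 promoters of the table, 92.1% hold at least 1 CG and the median is 6. The motif CANNTG, in which N is any base and which reads the same on both strands, occurs 5 times before Pgam2 and not before Pgam1 or Hk2, and the 2 starts of Hk1 have 1 and 2. It occurs at least once in 66.2% of all promoters. These are matches of letters only, and the counts do not tell which start of Hk1 was in use.

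Whether nanoplastics changed these genes was tested first in the whole heart, with 36 of the 37 genes passing the filter on low counts (Slc2a1, with 38 counts in all libraries together, did not). Hk1, which encodes the hexokinase found in most tissues and bound to mitochondria, was the single member that passed, and it was lower in nanoplastics mice. Of all genes tested, 2.56% passed. The other 35 members included 21 with a value above 0 and 14 below, and for each of these 35 the 95% interval of the log2 difference lay within a 2-fold change in either direction. The median difference was 0.04 for the 36 members and -0.03 for all genes. At an unadjusted p under 0.05 there were 7 members of 36 (19.4%), against 18.2% of all genes. DESeq2 called 2 members, Mdh1 and Mpc2, both higher, and gave no adjusted p for Hk1. With library totals alone 8 members were above 0 and 28 below, and 13 members changed sign.

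**Figure D2:**
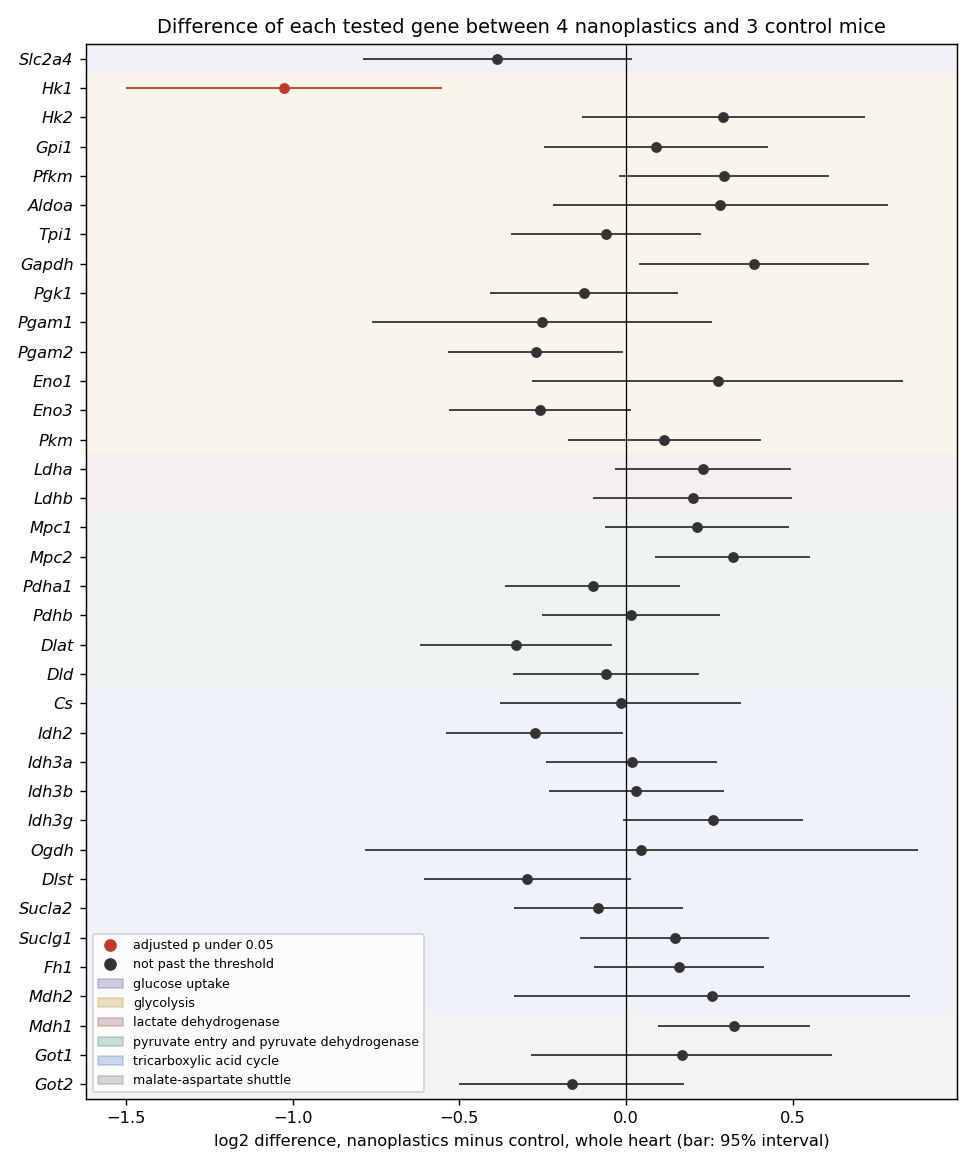
Difference of each of the 36 tested genes between 4 nanoplastics and 3 control mice in the whole heart, on the log2 scale, with the 95% interval as a bar and genes shaded by role. The red point is Hk1 at -1.03 with an interval from -1.50 to -0.55, and the other points lie between -0.39 (Slc2a4) and 0.38 (Gapdh).

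Hk1 stood at 11.5, 12.9 and 14.5 CPM in the control hearts and at 5.27, 5.54, 5.84 and 8.03 CPM in the nanoplastics hearts, from 65, 71 and 50 counts and 14, 12, 16 and 28 counts. Every nanoplastics heart was below every control heart. The log2 difference was -1.03 (SE 0.23, adjusted p = 0.0292), by edgeR's quasi-likelihood test with Benjamini-Hochberg adjustment over 8485 genes. Hk1os, which overlaps Hk1 on the other strand, had 4 counts in the whole table against 256 for Hk1. In bulk tissue, fewer cells that express Hk1 and less Hk1 RNA per cell cannot be told apart. The 8 endothelial marker genes, none of which passed the test, summed to 1143 to 1287 CPM in controls and 1116 to 1180 CPM in nanoplastics hearts, and the 8 macrophage markers, none of which passed, to 529 to 1019 and 527 to 968 CPM. The 8 fibroblast markers, of which 1 rose, summed to 1109 to 1173 CPM in controls and 1116 to 1745 CPM in nanoplastics hearts, and no marker of these 3 lists had 3 counts or fewer in every heart. Each of these sums largely follows 1 gene. By section medians these were Fabp4 (1038 to 1079 CPM, endothelial), Lyz2 (290 to 522 CPM, macrophage) and Dcn (865 to 1307 CPM, fibroblast). The 10 cardiomyocyte markers summed to 58065 to 71611 CPM in controls and 61762 to 73518 CPM in nanoplastics hearts. The 4 ventricular muscle markers summed to 7827 to 10237 CPM in controls and 9955 to 12010 CPM in nanoplastics hearts. The 8 atrial muscle markers summed to 218 to 341 CPM in controls and 232 to 17726 CPM in nanoplastics hearts. In each of these muscle lists 1 marker rose. The part of muscle, of other cells and of the section mix in the Hk1 result was not tested.

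The sections gave Hk1 few counts each. In the atrial section it was 13.8, 18.4 and 19.3 CPM in controls and 9.15, 5.07, 8.51 and 7.35 CPM in nanoplastics mice, a log2 difference of -1.24 (SE 0.32, adjusted p = 0.305). The atrial groups did not overlap, but the difference did not pass adjustment. Hk1 failed the filter in both ventricles. In the left ventricle the levels were 11.6, 16.1 and 7.39 CPM in controls and 5.16, 6.89, 5.70 and 7.32 CPM in nanoplastics mice, from 25, 36 and 3 and 7, 6, 6 and 6 counts. Every nanoplastics value was below every control value there, by a margin smaller than what 1 count is worth in the shallowest of these libraries. In the right ventricle the controls had 25, 15 and 20 counts and the nanoplastics mice 0, 0, 3 and 7. The right ventricle of nanoplastics mouse 4 stood at 17.9 CPM, above all 3 controls, so the groups overlapped.

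The whole-heart levels of Hk2 were 22.1, 27.9 and 29.5 CPM in controls and 23.0, 26.3, 31.8 and 46.2 CPM in nanoplastics mice, with overlapping groups and a log2 difference of 0.29 (SE 0.20, adjusted p = 0.492). The log2 ratio of Hk2 to Hk1 counts was 1.02 ± 0.0868 in controls (SD, n = 3) and 2.30 ± 0.19 in nanoplastics hearts (SD, n = 4), with no overlap. The exact two-sided permutation p was 0.0286, the smallest that 35 splits of 7 mice can give, and 0.381 after adjustment over 20 ratios. None of the 20 isoform ratios (5 pairs in 3 sections and the whole heart) passed adjustment. With 35 splits, a ratio could pass only if many of the 20 reached the smallest p at once. This test therefore cannot decide whether the Hk2 to Hk1 ratio alone changed.

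The Hk1 call rests on little material. Its log2 difference stayed between -1.27 and -0.93 over 16 alternatives planned with the tests, but the adjusted p rose to 0.141 without control mouse 2, 0.0803 without control mouse 3, 0.0764 without nanoplastics mouse 1 and 0.0640 without nanoplastics mouse 2. It was 0.0510 when a trend with transcript length was removed from each library, and 0.734 when the 3 sections of a mouse had equal weight (0.0826 in that fit without the library of 4662 counts). In the summed hearts it was 0.0300 without that library.

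**Figure D3:**
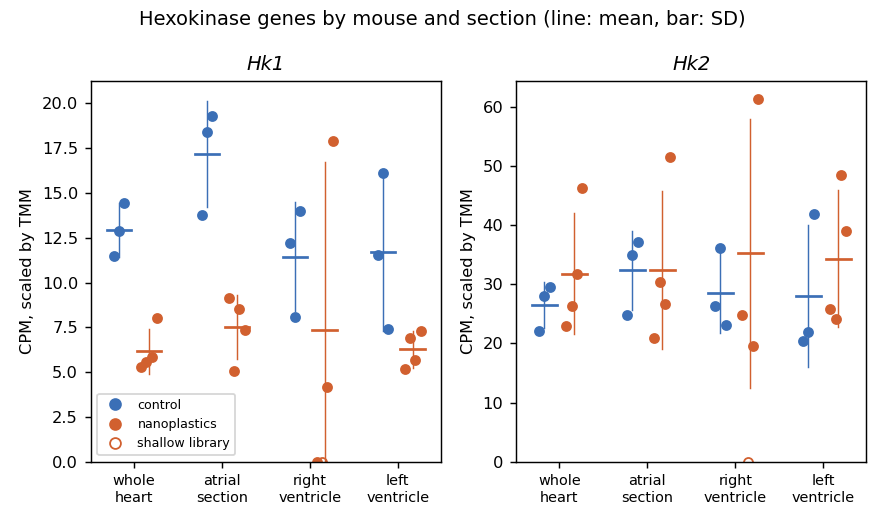
Level of Hk1 (left) and Hk2 (right) in each mouse, in CPM scaled by TMM, for the whole heart and each section. Blue points are controls and orange points nanoplastics mice, lines are means and bars SD, and the open circle is the library of 4662 counts, which is left out of the mean and SD. In the whole heart all 4 orange Hk1 points lie below the 3 blue ones.

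Of the other members, 4 had every nanoplastics heart above every control heart (Mdh1, Mpc2, Fh1 and Ldha) and 2 had every nanoplastics heart below (Dlat and Pgam2). With Hk1 these are 7 of 36, and 16.1% of all genes tested had such groups. They are named here because of their values. None of these 6 passed the test. Mdh1, the cytosolic arm of the malate-aspartate shuttle, was 3932, 4085 and 4319 CPM in controls and 5184, 5413, 5298 and 4681 CPM in nanoplastics hearts, a log2 difference of 0.32 (SE 0.11, adjusted p = 0.114). Mpc2, the partner of Mpc1 in the pyruvate carrier, was 1874, 1817 and 1790.1 CPM in controls and 2352, 2154, 2319 and 2289 CPM in nanoplastics hearts, a log2 difference of 0.32 (SE 0.11, adjusted p = 0.127). The lowest nanoplastics heart exceeded the highest control by a clear margin for both genes. With library totals alone both differences shrank to 0.07.

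Ldha, the muscle form of lactate dehydrogenase, and Fh1, the fumarase of the cycle, differed by less. Their log2 differences were 0.23 (SE 0.13, adjusted p = 0.354) and 0.16 (SE 0.12, adjusted p = 0.543), and both turned negative with library totals alone (-0.02 and -0.09). Dlat encodes the acetyltransferase core of the pyruvate dehydrogenase complex. It was 138, 159 and 175 CPM in controls and 101, 129, 135 and 135 CPM in nanoplastics hearts, a log2 difference of -0.33 (SE 0.14, adjusted p = 0.201). Pgam2 was 667, 720.1 and 617 CPM in controls and 607, 499, 579 and 530.0 CPM in nanoplastics hearts, a log2 difference of -0.27 (SE 0.13, adjusted p = 0.258). For both genes the highest nanoplastics heart came close to the lowest control heart.

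**Figure D4:**
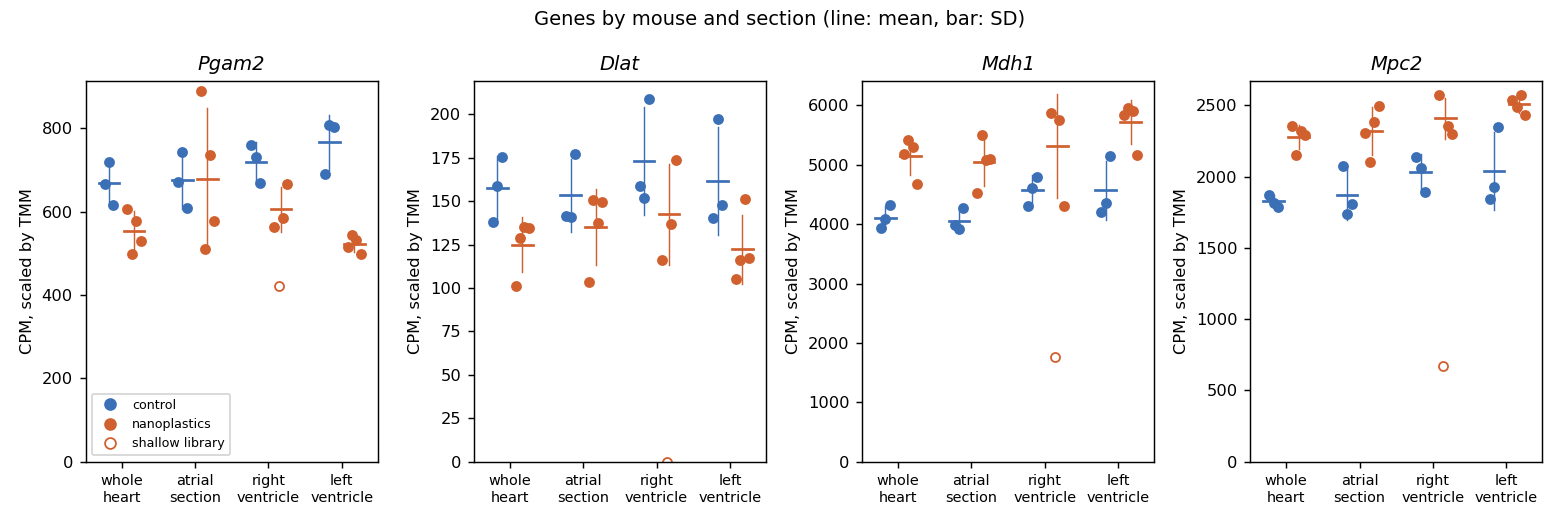
Levels of Pgam2, Dlat, Mdh1 and Mpc2 in each mouse, in CPM scaled by TMM, for the whole heart and each section. Blue points are controls and orange points nanoplastics mice, lines are means and bars SD, and the open circle is the library of 4662 counts, left out of the mean and SD. Mdh1 and Mpc2 lie higher and Dlat and Pgam2 lower in all 4 nanoplastics hearts, and the left ventricular points of Pgam2 form 2 separate groups.

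Read by role, members lay on both sides of 0 in glycolysis, in pyruvate oxidation and in the cycle. Of the 13 glycolytic genes, 7 had a whole-heart log2 difference above 0 and 6 below, with a median of 0.09. Of the 6 genes of pyruvate entry and oxidation, 3 were above and 3 below (median -0.02). Of the 11 genes of the cycle, 7 were above and 4 below, with values from -0.30 to 0.26 and a median of 0.03. Both lactate dehydrogenase genes were above 0 (0.23 and 0.20), as were Mdh1 and Got1 of the shuttle, while Got2 was at -0.16. With library totals alone both lactate dehydrogenase genes were below 0, as were 10 of the 11 genes of the cycle and Got1. Values also differed within a complex. Dlat was at -0.33, while Pdha1 and Pdhb, the subunits of its pyruvate dehydrogenase component, were at -0.10 and 0.01 and Dld at -0.06. Likewise Idh3a, Idh3b and Idh3g, the subunits of the NAD-linked isocitrate dehydrogenase, were at 0.02, 0.03 and 0.26.

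Gapdh, often used as a reference gene, was 641, 959 and 1055 CPM in controls and 1265, 1033, 946 and 1372 CPM in nanoplastics hearts. Its coefficient of variation over the 7 hearts was 22.8%, and its log2 difference was 0.38 (SE 0.16, adjusted p = 0.217). By contrast Idh3a, the catalytic subunit of the NAD-linked isocitrate dehydrogenase, had the smallest coefficient of variation of the 37 members at 4.65%, with 544, 494 and 512 CPM in controls and 558, 523, 496 and 512 CPM in nanoplastics hearts. Among members at 100 CPM or more the largest was 33.4% for Ogdh, a subunit of the oxoglutarate dehydrogenase complex, whose lowest and highest hearts both came from the nanoplastics group (96.1 and 269 CPM). The median coefficient was 12.9% for the 29 members at that level and 15.3% for all 969 genes at that level. Gapdh, Idh3a and Ogdh are named here because of their spread.

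In the left ventricle none of 35 tested members passed by edgeR, against 0.0551% of all 5440 genes, and 5 had an unadjusted p under 0.05 (14.3%, against 14.1% of all genes). DESeq2 called 1 member, Pgam2. The left ventricular level of Pgam2 was 691, 808 and 803 CPM in controls and 517, 543, 533 and 499 CPM in nanoplastics mice. The 4 nanoplastics values lay within a narrow band below all 3 controls. The log2 difference was -0.57 (SE 0.13, adjusted p = 0.0865) by edgeR, and -0.55 (adjusted p = 0.0146) by DESeq2. Its direction was the same in the 13 alternatives run for this comparison, from -0.76 to -0.52, and it passed in 3 of them. In the atrial section Pgam2 was 672, 745 and 609 CPM in controls and 890.4, 509.5, 735 and 577 CPM in nanoplastics mice, with overlapping groups. The highest of these, in nanoplastics mouse 1, came from the atrial library with the most atrial muscle RNA.

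Slc2a4 in the left ventricle was 29.6, 31.3 and 22.2 CPM in controls and 11.1, 16.1, 26.6 and 18.3 CPM in nanoplastics mice. Nanoplastics mouse 3 lay among the controls, and the log2 difference was -0.73 (SE 0.27, adjusted p = 0.206). Mdh1 was 4213, 4354 and 5145 CPM in controls and 5837, 5959, 5905 and 5169.6 CPM in nanoplastics mice, a log2 difference of 0.31 (SE 0.13, adjusted p = 0.249). All 4 nanoplastics values of Mdh1 were above the 3 controls, though the lowest of them was close to control mouse 3. Groups did not overlap for 5 of the 35 tested members (Mdh1, Fh1 and Mpc2 higher, Dlst and Pgam2 lower), and for 12.5% of all genes tested. Hk1, which failed the filter there, is not among the 35.

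In the atrial section no member and no gene of the 5502 tested passed by edgeR (0%). At an unadjusted p under 0.05 there was 1 member of 35, Hk1, against 12.3% of all genes, and DESeq2 called 94 genes but no member. Mdh1 was 3991, 3915 and 4277 CPM in controls and 4528, 5497, 5078 and 5096 CPM in nanoplastics mice, a log2 difference of 0.30 (SE 0.17, adjusted p = 0.495). Mpc2 was 2074, 1739 and 1810.1 CPM in controls and 2308, 2101, 2380.0 and 2493 CPM in nanoplastics mice, a log2 difference of 0.29 (SE 0.17, adjusted p = 0.525). For both genes all 4 nanoplastics values were above all 3 controls. Together with Hk1 these were the 3 of the 35 tested members whose atrial groups did not overlap, against 13.2% of all genes tested. Pgam1, which failed the filter there, also had every nanoplastics value below every control, from 4 to 16 counts a library.

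In the right ventricle no member of 34 passed by edgeR or DESeq2, against 0.869% of all 4489 genes, and 1 had an unadjusted p under 0.05 (13.5% of all genes). Without the library of 4662 counts there were 5 of 35 (Gapdh, Dlst, Idh2, Sucla2 and Eno3), against 14.6% of all genes. The 1 member with that library was Dlst, the succinyltransferase core of the oxoglutarate dehydrogenase complex. It was 98.8, 91.8 and 118 CPM in controls and 56.9, 84.3, 75.5 and 69.0 CPM in nanoplastics mice, where the second value is 1 count of the library of 4662 counts. All nanoplastics values were below the controls. The log2 difference was -0.58 (SE 0.25, adjusted p = 0.246), and -0.61 (SE 0.22, adjusted p = 0.154) without that library.

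Gapdh in the right ventricle was 745, 927 and 1083 CPM in controls and 1659, 506, 985 and 1609 CPM in nanoplastics mice. Its log2 difference was 0.53 (SE 0.33, adjusted p = 0.505), and 0.61 (SE 0.20, adjusted p = 0.111) without the library of 4662 counts. The groups overlapped either way. Ogdh was 178, 149 and 203 CPM in controls and 188, 0, 122 and 391 CPM in nanoplastics mice. Nanoplastics mouse 4 was far above every other mouse and mouse 2 had no count. The log2 difference of Ogdh was 0.34 (SE 0.24, adjusted p = 0.553), and its sign changed in 2 of 14 alternatives (range -0.39 to 0.66). Groups did not overlap for 4 members, all lower (Dlst, Pgam2, Sucla2 and Eno3), and for 9.73% of all genes. Without that library they did not overlap for 7 of 35 members, 5 lower (those 4 and Idh2) and 2 higher (Mpc2 and Ldha), and for 21.1% of 5201 genes.

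The comparison of sections within mice asks whether RNA levels of these genes differ between the sections as labelled. The label of the atrial section was poorly borne out by its markers. These results therefore do not tell how atrial and ventricular muscle differ. None of the 34 tested members passed by edgeR between atrial section and left ventricle (0.155% of 5176 genes did), between atrial section and right ventricle (0.606% of 4954) or between the ventricles (0.02% of 5012), and DESeq2 called none in any of the 3. The counts at an unadjusted p under 0.05 were 6, 0 and 1 members, against 12.6%, 7.27% and 5.21% of all genes. For all 34 members and all 3 comparisons the 95% interval lay within a 2-fold change in either direction.

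Between atrial section and left ventricle the smallest p belonged to Ogdh, which ranged over 103 to 295 CPM with a median of 203 in the atrial section and over 98.7 to 223 CPM with a median of 160.2 in the left ventricle. It was higher in the atrial section in 7 of 7 mice, by a log2 difference of 0.40 (SE 0.10, adjusted p = 0.131). Eno1, the widely expressed enolase, ranged over 38.6 to 66.7 CPM with a median of 47.0 in the atrial section and over 20.3 to 54.9 CPM with a median of 32.2 in the left ventricle. It was higher in the atrial section in 6 of 7 mice, with a log2 difference of 0.50 (SE 0.15, adjusted p = 0.167). Mpc1 ranged over 1529 to 2599 CPM with a median of 2238 in the atrial section and over 1879 to 3049 CPM with a median of 2971 in the left ventricle. It was lower in the atrial section in 6 of 7 mice, with a log2 difference of -0.28 (SE 0.10, adjusted p = 0.253). The ranges of the sections overlapped for all 3 genes. Mpc1 passed without nanoplastics mouse 4 (-0.40, adjusted p = 0.0192), and Ogdh passed with library totals alone (0.51, adjusted p = 0.0212).

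The log2 ratio of Eno3 to Eno1 was 4.38 ± 0.44 in the atrial section and 4.91 ± 0.601 in the left ventricle (SD, n = 7 each). It was lower in the atrial section by 0.53 on average, with an exact two-sided paired permutation p of 0.0156, the smallest that 128 sign changes can give, and 0.234 after adjustment over 15 ratios. No ratio passed between sections, with or without that library. With 128 sign changes, a ratio could pass only if several of the 15 reached the smallest p at once. This test therefore cannot decide whether the Eno3 to Eno1 ratio alone differed between sections.

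By role the differences between atrial section and left ventricle leaned apart. Of 11 tested glycolytic genes, 9 were above 0 in the atrial section (median 0.11). Of 6 genes of pyruvate entry and oxidation, 5 were below 0 (median -0.19), and of 11 genes of the cycle, 7 were below (median -0.11). The median of all genes was 0.01. Across the 34 genes the difference moved with the GC content of the longest annotated transcript (Pearson r = 0.62), and across 5127 genes of the table r was 0.30. The same r over the members was 0.52 between atrial section and right ventricle and 0.51 between right and left ventricle, against 0.28 and 0.06 over all genes. Without the library of 4662 counts the r over 35 members was 0.63 and 0.38 in these comparisons, and over all genes 0.27 and 0.06. These are correlations across genes that share their libraries and their scaling, and genes are not independent replicates. With a GC trend removed from each library, a fit added after seeing the data, 6 of the 11 glycolytic genes were above 0 between atrial section and left ventricle in place of 9. Over all 34 members, 14 were above 0 in place of 18, and between atrial section and right ventricle 10 in place of 26. That count of 26 also moved in other fits: it was 14 of 34 with the length trend removed, and 18 of 35 without the library of 4662 counts. With the GC trend removed, the genes of pyruvate entry and oxidation still had 5 of 6 below 0 between atrial section and left ventricle. The genes of the cycle still had 7 of 11 below 0. Role and GC content went together among the members. GC content ran from 49.7% (Pgk1) to 57.7% (Pkm) in glycolysis and from 40.6% (Dld) to 48.0% (Mpc1) in pyruvate entry and oxidation. In the cycle it ran from 43.2% (Sucla2) to 55.6% (Idh2). Whether role or GC content lies behind these differences was not tested.

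**Figure D5:**
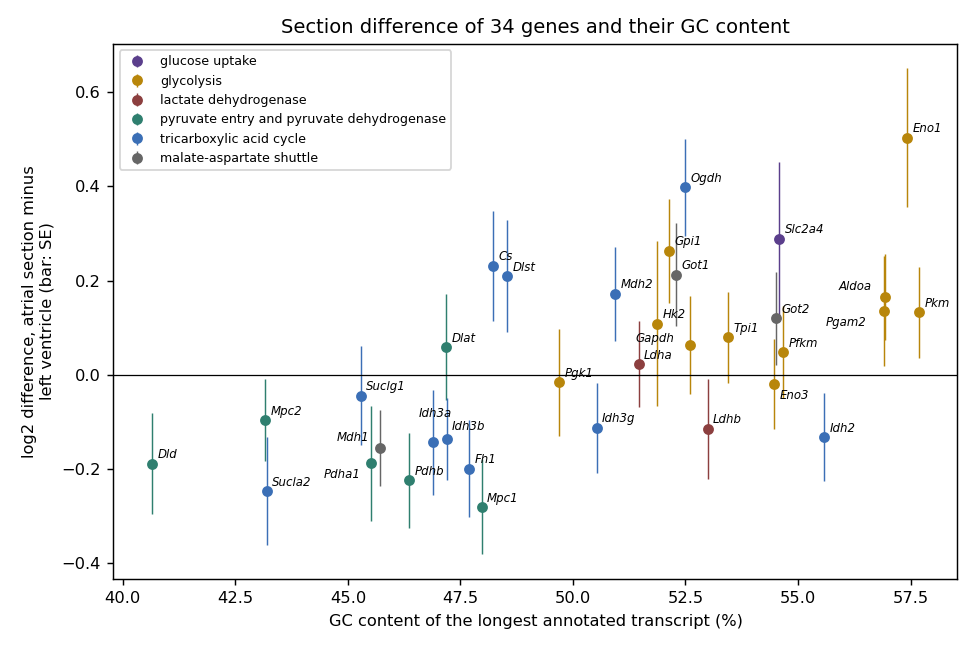
Log2 difference between atrial section and left ventricle of the 34 tested genes (bar: SE) against the GC content of the longest annotated transcript in percent, coloured by role. Genes of high GC, mostly glycolytic, lie higher and genes of low GC, mostly mitochondrial, lie lower, with r = 0.62 over the 34 points.

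Between atrial section and right ventricle the 3 members with the smallest p were Eno1, Dlst and Pkm, the pyruvate kinase gene. In the right ventricle Eno1 ranged over 23.8 to 169 CPM with a median of 51.1, and the highest value is 2 counts of the library of 4662 counts. The log2 differences were 0.31 (SE 0.17, adjusted p = 0.739) for Eno1, 0.23 (SE 0.15, adjusted p = 0.826) for Dlst and 0.19 (SE 0.14, adjusted p = 0.878) for Pkm. Dlst ranged over 54.9 to 132 CPM with a median of 102 in the atrial section and over 56.9 to 118 CPM with a median of 84.3 in the right ventricle. Pkm ranged over 171 to 271 CPM with a median of 243 in the atrial section and over 169 to 260.5 CPM with a median of 197 in the right ventricle. All 3 were higher in the atrial section in 5 of 7 mice. Without that library Eno1 was at 0.33 (SE 0.16, adjusted p = 0.781), Dlst at 0.23 (SE 0.13, adjusted p = 0.813) and Pkm at 0.18 (SE 0.11, adjusted p = 0.846).

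Between the ventricles these were Ogdh, Mpc1 and Pdha1. Ogdh ranged over 0 to 391 CPM with a median of 178 in the right ventricle and its log2 difference, right minus left, was 0.28 (SE 0.11, adjusted p = 0.727). Mpc1 ranged over 253 to 3009.6 CPM with a median of 2329 in the right ventricle, with a log2 difference of -0.26 (SE 0.17, adjusted p = 0.966). Pdha1 ranged over 169 to 1154 CPM with a median of 869 in the right ventricle and over 832 to 1066 CPM with a median of 985 in the left, with a log2 difference of -0.21 (SE 0.13, adjusted p = 0.966). The lowest right ventricular value of each is that of the library of 4662 counts. Without it the differences were 0.29 (SE 0.11, adjusted p = 0.875), -0.14 (SE 0.08, adjusted p = 0.959) and -0.17 (SE 0.09, adjusted p = 0.938). Mpc1 and Pdha1 were thus nearer 0 without that library.

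Whether the nanoplastics difference itself varied between sections was tested as an interaction with the mouse as a block. No member of 36 and no gene of 6269 passed (0%) by edgeR for the atrial section against the left ventricle or for the right against the left ventricle, and DESeq2 called no member in either. At an unadjusted p under 0.05 there were 2 members (5.5% of all genes) and 0 members (3% of all genes). The 2 were Pgam1, at -1.33 (SE 0.59, adjusted p = 0.901), and Pgam2, at 0.53 (SE 0.26, adjusted p = 0.901), of opposite sign, followed by Hk2 at -0.50 (SE 0.35, adjusted p = 0.952). Pgam1 was 8.27, 14.7 and 7.15 CPM in the atrial section of controls and 5.23, 4.23, 6.08 and 6.86 CPM in that of nanoplastics mice, and 4.16, 5.37 and 12.3 against 5.16, 11.5, 6.65 and 11.0 CPM in the left ventricle. Those atrial levels came from 4 to 16 counts. Hk2 was 24.8, 35.0 and 37.2 CPM in the atrial section of controls and 20.9, 30.4, 26.7 and 51.5 CPM in nanoplastics mice, and 20.3, 21.9 and 41.9 against 25.8, 24.1, 48.4 and 39.1 CPM in the left ventricle. For the right against the left ventricle the smallest p belonged to Sucla2, a subunit of succinyl-CoA ligase, at -0.43 (SE 0.29, adjusted p = 1.000), then Dlst at -0.37 (SE 0.27, adjusted p = 1.000) and Pgam1 at -0.91 (SE 0.67, adjusted p = 1.000). Without the library of 4662 counts these were -0.33 (SE 0.23, adjusted p = 1.000), -0.37 (SE 0.25, adjusted p = 1.000) and -0.88 (SE 0.68, adjusted p = 1.000). Sucla2 was 904, 945 and 933 CPM in the right ventricle of controls and 729.5, 253, 860.3 and 547 CPM in nanoplastics mice, and 921, 925 and 754 against 954, 924, 965 and 639 CPM in the left ventricle. Its groups did not overlap in the right ventricle and overlapped in the left. Dlst in the left ventricle was 90.1, 90.4 and 101 CPM in controls and 73.0, 72.3, 86.4 and 86.6 CPM in nanoplastics mice, again with every nanoplastics value lower. Pgam1 in the right ventricle was 8.80, 8.10 and 12.6 CPM in controls and 7.42, 0, 8.39 and 5.11 CPM in nanoplastics mice.

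Beyond the members, 111 other genes of glucose handling were listed, among them further transporters and isoforms, regulators of pyruvate dehydrogenase, glycogen and pentose phosphate genes and insulin signalling, and 106 were in the table. Of the 82 tested in the whole heart, 1 passed, where 2.56% of all genes tested did. None passed in any section, section comparison or interaction. That gene was Akt2, the kinase through which insulin moves GLUT4 to the cell surface. It was 28.1, 25.6 and 20.3 CPM in controls and 13.2, 13.9, 16.1 and 14.3 CPM in nanoplastics hearts. The groups did not overlap, as for 16.1% of all genes tested. Akt2 fell by 0.79 on the log2 scale (SE 0.18, adjusted p = 0.0296). Its difference was below 0 in 16 alternatives of the fit and passed in 8. Leaving out control mouse 1 or 2 or nanoplastics mouse 1, 2 or 4 gave adjusted p values from 0.0502 to 0.141, and it did not pass with the length trend removed (0.0684), with the replicate block (0.0580) or with sections at equal weight (0.734). In the whole heart 16 of the 82 (19.5%) had an unadjusted p under 0.05, close to the 18.2% of all genes. The insulin and energy sensing list, with 15 tested genes, had 1 such gene higher and 5 lower, Akt2 included. That is 6 of 15 against 18.2% of all genes, with a median log2 difference of -0.09. This list is named because of its counts. The fructose bisphosphate control list had 3 tested genes, with 2 higher and 1 lower at an unadjusted p under 0.05. Whether any list exceeds the share of all genes was not tested.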

How the data were processed

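Per the labels' protocols, oligo-dT beads were used to take up polyadenylated RNA, which was copied with template switching and read at 150 bp. The authors deposited 1 table of raw counts by gene symbol. The submitters' processing notes name STAR without a version. The sources used here give no genome build, annotation or counting program and do not say whether strand or molecular identifiers were used, so reads shared between overlapping genes or copies are uncertain (Mpc1-ps, Eno1b and the opposite-strand neighbours of Mdh1 and Fh1).

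Tests were run with edgeR 4.0.16 and, as an alternative, DESeq2 1.42.0 (limma 3.58.1, R 4.3.3), and exact tests in Python 3.11.15. Each comparison used filterByExpr with its defaults, TMM scaling and the robust quasi-likelihood test, with Benjamini-Hochberg adjustment over all genes tested and calls at an adjusted p under 0.05. All adjusted p values are from this test unless DESeq2 or an exact permutation test is named. The replicates are separate mice, and the labels name no batch. Treatment comparisons used 1 value per mouse. Section comparisons had the mouse as a block, since the labels take the sections from the same animal: over the 3 section pairs, deviations of same-mouse sections correlated with medians of 0.12, 0.14 and 0.20, against -0.05, -0.07 and -0.06 for different mice. Isoform ratios are log2 ratios of counts with 0.5 added, tested by exact permutation. Lengths and GC content are those of the longest GENCODE M21 transcript, matched by symbol for 97.8% of the table's genes.

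The members, lists and tests were chosen with earlier results of these data known. Members called in a comparison have their values in every library or mouse of it. Where none was called the 3 with the smallest p have them, and both genes of each isoform pair have their levels. Alternatives were DESeq2's size factors, library totals, no filter, DESeq2's test, removal of a length trend, each mouse left out, the replicate block, equal section weights and 2 libraries left out. Removal of a GC trend was added after seeing the data, as were equal weights, isoform ratios and GC correlations without the library of 4662 counts. The steps were tested on simulated data. No 2 libraries were identical.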

Additional observations from a re-analysis of the deposited data

How the results depend on the processing

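In the whole heart, where 1 member passed (Hk1), 6 members passed with library totals alone, all lower (Dlat, Dlst, Eno3, Hk1, Idh2 and Pgam2). DESeq2 gave 2 (Mdh1 and Mpc2, higher), and removal of the length trend gave 2 (Mpc2 higher, Pgam2 lower). With sections at equal weight 0 passed, also without the library of 4662 counts. Leaving out 1 mouse gave 0 to 1 members, and 0 without control mouse 2, control mouse 3, nanoplastics mouse 1 or nanoplastics mouse 2. For Hk1 the log2 difference ran from -1.20 to -0.94 when 1 mouse was left out. In the right ventricle library totals gave 4 members, all lower (Dlst, Eno3, Pdha1 and Sucla2). In the left ventricle library totals, DESeq2 and removal of the length trend each gave 1 (Pgam2, lower). Between atrial section and left ventricle library totals gave 1 (Ogdh), and leaving out 1 mouse gave 0 to 1 (Mpc1, without nanoplastics mouse 4). The cause of these changes was not tested. Over all genes tested, the number passing ranged over the alternatives from 0 to 797 in the whole heart (217 in the reported fit), 0 to 106 in the atrial section (0), 0 to 234 in the right ventricle (39), 0 to 80 in the left ventricle (3), 0 to 115 between atrial section and left ventricle (8) and 0 to 92 between atrial section and right ventricle (30). Every other alternative of the member counts, of the isoform ratios and of both interactions stayed on the same side of the threshold. For isoform ratios between treatment groups this was fixed in advance when 1 mouse was left out. Too few splits of the mice then remain for any ratio to pass, so that result is no sign of stability.

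The treatment groups share replicate numbers but different animals carry them, and same-numbered hearts deviated with correlations of -0.04 to 0.09 against -0.25 to 0.20 for other pairs. With the replicate block, in which nanoplastics mouse 4 has no partner and does not enter the difference, 2 members passed in the whole heart (Mdh1 higher, Hk1 lower), and no member passed in any section. Without the mouse as a block no member passed between sections.

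Depth limits the low genes: Slc2a1, with 38 counts in all, was tested only without the filter on low counts, and Hk1 and Pgam1 only in part. The number of independent molecules behind the counts is unknown.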
